A study of Mus musculus with 4 samples.

Results

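The genes described here are 9 genes of red blood cell formation, Gata1, Klf1, Gfi1b, Epor, Car1, Car2, Hba-a1, Hbb-bs and Hbb-bt, out of 32285 genes counted. They were listed by name for their role in the erythroid lineage and not by any measured value, and all 9 were present in the matrices. All 9 also reached a mean level of 1 CPM, the unit explained below, over the 4 libraries, as did 12706 genes in all. The cells were mouse bone marrow cells sorted as CD45.2+Lin-Sca1+Kit+. This fraction, LSK for short, is where blood stem cells and multipotent progenitors are found. The cells were collected 10 weeks after transplantation. CD45.2 marks the donor's cells in the usual form of such transplants. Each of 4 genotypes gave 1 library: a control, a library labelled Mll3 deleted, a library labelled Mll4 deleted and a library labelled Mll3/4 deleted, which by its label lacks both genes. Mll3 and Mll4, encoded by Kmt2c and Kmt2d, are enzymes that methylate histone H3 at enhancers. The strain, the age and number of donors, the way the genes were deleted and the genotype of the hosts were not given in the sources used here.

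Red blood cells arise from stem cells through progenitors that turn on the transcription factors Gata1 and Klf1, gain the erythropoietin receptor and only later fill with haemoglobin. The LSK sort is made to stop before that point, so erythroid genes are normally rare in it and globin RNA rarer still. Gata1 is shared with megakaryocytes, mast cells and eosinophils, and Gfi1b and Car2 are also active in stem and megakaryocyte progenitor cells, so a UMI of these genes alone does not name an erythroid cell.

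A UMI is a tag that marks 1 captured RNA molecule, read here near the 3-prime end, and levels below are given in CPM, the UMIs of a gene scaled to the same total of gene UMIs in each library. The kept cells numbered 7274, 6101, 4793 and 4748 in the control and in the libraries labelled Mll3, Mll4 and Mll3/4, the order used for all lists of 4 values, with 50792614 to 120700343 UMIs per library and medians of 8920 to 21400 UMIs per cell. Any pair of libraries shared 7 to 14 cell barcodes. Kmt2c was at 68.9, 35.3, 61.3 and 42.3 CPM and Kmt2d at 24.6, 21.6, 22.6 and 25.4 CPM in the same order. Kmt2d was thus not clearly lower in the libraries that carry an Mll4 label, and a 3-prime count does not test a deletion elsewhere in the gene, so libraries are named by their labels throughout. Kit and Ly6a, the genes of the Kit and Sca1 proteins used in the sort, were found in all 4 libraries, at 215 to 362 and 93.4 to 255 CPM. The libraries stood apart in cell type. Cells with at least 2 UMIs of each of at least 3 B-lineage markers made up 0.426%, 3.74%, 1.94% and 99.5% of the 4 libraries, and the same rule gave 0.344%, 0.164%, 18.3% and 0% for mast cell and basophil markers and 42.6%, 54.7%, 29.1% and 0.484% for stem cell markers. Each group was 1 library, so no difference below has a replicate check or a p-value, and every 95% interval covers counting error only. In sums over a library, fewer cells of a type and less RNA per cell cannot be told apart.

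The globins are the end products of the lineage, and their promoters are shown because the beta globin genes Hbb-bs and Hbb-bt parted in these data while Hba-a1, an alpha globin, followed Hbb-bs. The lines give the 250 bases before the RefSeq start of each gene (GRCm38.p6), 5′ to 3′ on the gene's strand, from chr11:32283422-32283671 (plus strand), chr7:103827929-103828178 (minus strand) and chr7:103813924-103814173 (minus strand). Capitals mark the letters GATAA, the letters CACCC, the letters CCAAT and the letters TATAA on either strand.
Hba-a1: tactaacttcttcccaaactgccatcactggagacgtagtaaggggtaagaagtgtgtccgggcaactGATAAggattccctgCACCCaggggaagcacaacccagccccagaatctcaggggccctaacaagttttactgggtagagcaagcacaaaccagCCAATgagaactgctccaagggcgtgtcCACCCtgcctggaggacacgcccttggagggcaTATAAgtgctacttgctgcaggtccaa
Hbb-bs: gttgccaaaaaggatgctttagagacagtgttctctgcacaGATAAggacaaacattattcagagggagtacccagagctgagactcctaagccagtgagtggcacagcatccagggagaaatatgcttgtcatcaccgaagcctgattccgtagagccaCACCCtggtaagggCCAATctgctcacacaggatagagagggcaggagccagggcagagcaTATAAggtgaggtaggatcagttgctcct
Hbb-bt: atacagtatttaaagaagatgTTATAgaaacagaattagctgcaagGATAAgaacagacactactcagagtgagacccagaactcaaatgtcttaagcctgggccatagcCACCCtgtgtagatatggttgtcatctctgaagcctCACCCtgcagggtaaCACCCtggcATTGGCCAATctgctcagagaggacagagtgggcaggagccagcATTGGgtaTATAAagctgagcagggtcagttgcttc
GATAA holds the core that GATA factors read, CACCC is the kind of box read by Klf1, and CCAAT and TATAA are general promoter boxes. All 3 promoters held 1 GATAA each, and Hbb-bt held 3 CACCC and 3 CCAAT against 1 of each in Hbb-bs. In Hbb-bt a reversed CCAAT box and a forward one adjoin. Of all 32851 promoters of the same length, 22.6% held GATAA, 52.0% CACCC, 33.8% CCAAT and 22.8% TATAA. The Hbb-bs and Hbb-bt promoters were identical at 77.4% of aligned bases and the last 300 bases of their transcripts at 88.5% of aligned bases, which leaves differences for reads to tell the genes apart. Hba-a1 and its copy Hba-a2 were identical at 283 of the last 300 bases, with 1 mismatch in the aligned part, so the split of reads between those copies is uncertain. Promoter entries were found for 7 of the 9 genes, all but Car1 and Car2.

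Among the transcription factors, Gata1 (ENSMUSG00000031162, chromosome X, 7959260 to 7978071, GRCm38), the master regulator of red cell and megakaryocyte genes, was counted 634, 509, 330 and 6 times in the 4 libraries. That is 5.31 (95% interval 4.91 to 5.74), 4.81 (4.40 to 5.24), 2.73 (2.45 to 3.05) and 0.118 (0.0434 to 0.257) CPM. The intervals of the control and the Mll3-labelled library overlapped, and those of the other 2 lay below them and apart. Against the control, Gata1 was 1.94-fold lower in the Mll4-labelled library (interval 1.70 to 2.23) and 45.0-fold lower in the Mll3/4-labelled library (20.5 to 123).

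Gfi1b (ENSMUSG00000026815, chromosome 2, 28609450 to 28621982), a repressor needed for red cell and platelet formation, followed the same order. Its counts were 1249, 1046, 542 and 10, or 10.5, 9.88, 4.49 and 0.197 CPM. The control and the Mll3-labelled library again overlapped. Gfi1b was 2.33-fold lower than the control in the Mll4-labelled library (2.11 to 2.58) and 53.2-fold lower in the Mll3/4-labelled one (28.8 to 111).

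Klf1 (ENSMUSG00000054191, chromosome 8, 84901928 to 84905291), the factor that activates adult beta globin and other red cell genes, was the rarest of the 3 factors in the control. It was counted 216, 234, 138 and 6 times, or 1.81, 2.21, 1.14 and 0.118 CPM. The level intervals of the control and the Mll3-labelled library overlapped, though the interval of their ratio, 1.22 (1.01 to 1.48), lay just above 1. Klf1 was 1.58-fold lower (1.27 to 1.97) and 15.3-fold lower (6.93 to 42.2) in the Mll4-labelled and Mll3/4-labelled libraries.

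Epor (ENSMUSG00000006235, chromosome 9, 21958897 to 21963506) encodes the erythropoietin receptor, through which the hormone keeps red cell progenitors alive. It was counted 282, 530, 153 and 8 times, or 2.36, 5.0, 1.27 and 0.158 CPM. Here all 4 libraries were apart beyond counting error, with the Mll3-labelled library highest. Its ratio to the control was 2.12-fold (1.83 to 2.46), or 1.08 on the log2 scale. That value sat at the 2-fold line, and it was between 0.94 and 1.0 with TMM scaling, with median-of-ratios scaling, with stricter cells and with a total that leaves out mitochondrial, ribosomal protein and haemoglobin genes. Epor was 1.86-fold lower in the Mll4-labelled library (1.53 to 2.28) and 15-fold lower in the Mll3/4-labelled library (7.51 to 35.1).

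**Figure D1:**
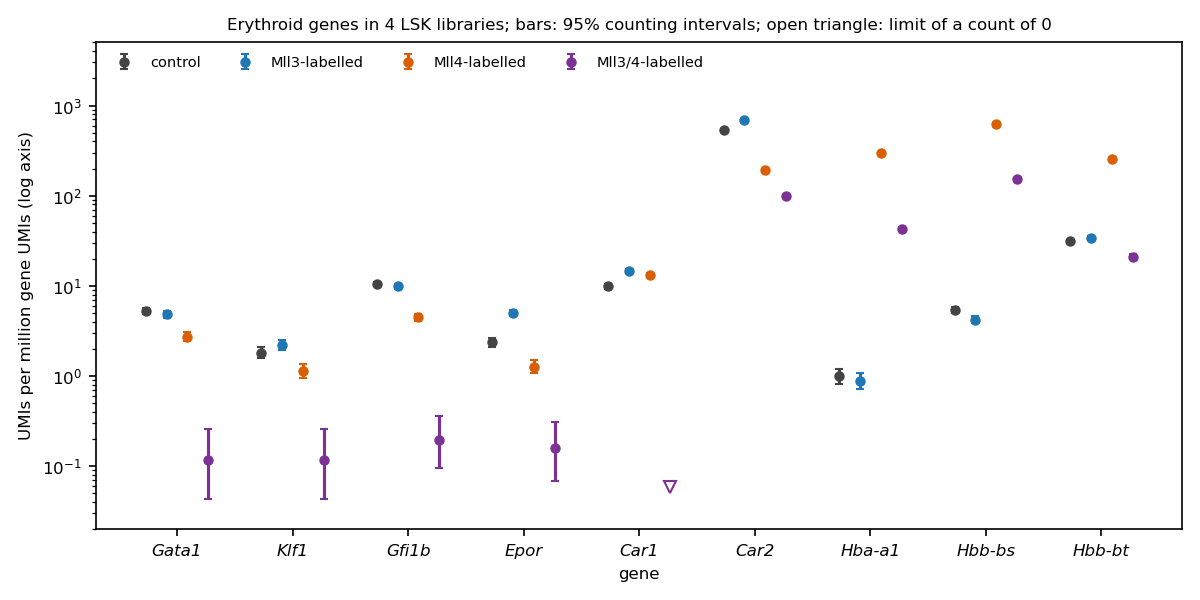
CPM (log axis) of the 9 genes in the 4 libraries, 1 point per library, with 95% counting intervals; the open triangle is the limit of 3 UMIs for a count of 0. The Mll3/4-labelled library is lowest for every gene up to Car2, and the Mll4-labelled library is highest for the 3 globins.

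Car2 and Car1 encode carbonic anhydrases, enzymes that speed the exchange of carbon dioxide and bicarbonate, and they lie near each other on chromosome 3. Car2 (ENSMUSG00000027562, 14886273 to 14900770) was the most widely detected of the 9 genes, at 529, 691, 195 and 98.5 CPM from 63171, 73212, 23505 and 5002 UMIs. It had at least 1 UMI in 95.3%, 93.8%, 43.6% and 36.2% of cells, and after each cell was thinned to 3000 UMIs in 71.9%, 74.9%, 26.2% and 18.5%. The median cell held 7, 9, 0 and 0 UMIs. Car2 was 2.72-fold lower than the control in the Mll4-labelled library (2.68 to 2.76) and 5.38-fold lower in the Mll3/4-labelled library (5.22 to 5.53).

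Car1 (ENSMUSG00000027556, 14766216 to 14808368), an enzyme of committed red cell progenitors, was by contrast confined to few cells. It was detected in 43, 32, 54 and 0 cells of the 4 libraries, which held 1176, 1552, 1594 and 0 UMIs, or 9.86, 14.7, 13.2 and 0 CPM. The 3 richest cells of each library held 63.2%, 60.4% and 85.1% of the UMIs in the control, the Mll3-labelled and the Mll4-labelled library. Without those 3 cells per library the log2 ratio of the Mll4-labelled library to the control was -0.88 in place of 0.42, so its level rests on those cells. Taking 0 UMIs as at most 3 in the library, Car1 was at least 167-fold lower in the Mll3/4-labelled library than in the control, and up to 0.0632% of its cells could hold a UMI, which is no limit on cells that express the gene.

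Hba-a1 (ENSMUSG00000069919, chromosome 11, 32283511 to 32284465) was counted 118, 94, 36042 and 2180 times, or 0.989, 0.888, 299 and 42.9 CPM. Hbb-bs (ENSMUSG00000052305, chromosome 7, 103826534 to 103828096), an adult beta globin, was at 5.43, 4.20, 619 and 152 CPM from 648, 445, 74733 and 7714 UMIs. Both were thus far higher in the Mll4-labelled and Mll3/4-labelled libraries than in the others. The ratios to the control were 302-fold (252 to 365) and 43.4-fold (36.1 to 52.7) for Hba-a1 and 114-fold (106 to 123) and 28.0-fold (25.8 to 30.3) for Hbb-bs. Hba-a2, which is not among the 9 genes, moved with Hba-a1 at 0.813, 0.378, 292 and 32.9 CPM.

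Hbb-bt (ENSMUSG00000073940, chromosome 7, 103812524 to 103813996), the neighbouring adult beta globin gene, gave another order. Its counts were 3750, 3614, 30581 and 1066, or 31.4, 34.1, 253 and 21.0 CPM. In the control it made up 85.3% of the UMIs of Hbb-bs and Hbb-bt together, in 3-prime counts that do not grow with gene length. Hbb-bt was 8.06-fold higher than the control in the Mll4-labelled library (7.79 to 8.34) and 1.5-fold lower in the Mll3/4-labelled library (1.40 to 1.60).

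Counted over the 9 genes, 1 was at least 2-fold higher and 0 lower in the Mll3-labelled library, where 3.49% of the 12706 genes were higher and 1.83% lower by that rule. The Mll4-labelled library had 3 higher and 2 lower, against 9.59% and 6.59% of all genes, and Gata1 (log2 ratio -0.96) and Epor (-0.90) lay just inside the 2-fold line while Gfi1b (-1.22) lay just outside. The Mll3/4-labelled library had 2 higher and 6 lower, against 10.7% and 17.4%. The median log2 ratio of the 9 genes was 0.12, -0.66 and -3.82, beside 0.10, -0.10 and -0.13 over all 12706 genes. The 3 comparisons share the control library, so they are not independent of each other.

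The surface antibodies were used to place the cells in 6 gates. Cells without CD135 were split by CD150 and CD48 into HSC (CD150 only), MPP1 (neither), MPP2 (both) and MPP3 (CD48 only). Cells with CD135 were split by CD150 into MPP4 (without it) and a CD150+CD135+ gate. MPP2 is the multipotent fraction known for megakaryocyte and red cell output. In the control, MPP2 was 4.77% of cells and had the highest Gata1 (27.6 CPM), Klf1 (9.06), Epor (10.2) and Car1 (67.2). In MPP4, the lymphoid-leaning fraction, the same genes were at 0.0684, 0.137, 0.137 and 0.0684 CPM, each from 1 or 2 UMIs. Gfi1b was spread more evenly, from 4.44 CPM in MPP4 to 32.1 in the CD150+CD135+ gate, and Car2 ranged only from 325 to 973 CPM. With log antibody counts not centred, the control's highest gate was MPP2 for Gfi1b and HSC for Car2. It stayed MPP2 for Gata1, Klf1, Epor and Car1. MPP2 was also the gate with the highest Gata1 and Klf1 in the Mll3-labelled (16.1 and 10.5 CPM) and Mll4-labelled libraries (22.9 and 4.22 CPM).

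Within gates the Mll4-labelled library lay closer to the control than over whole libraries for some genes and not for others. In MPP2, Gata1 was 22.9 against 27.6 CPM (ratio 0.829, 0.661 to 1.04) and Gfi1b 21.8 against 22.5 CPM (0.971, 0.764 to 1.23), so neither was apart from the control at this depth. Klf1 was 2.15-fold lower there, at 4.22 against 9.06 CPM on 24 and 69 UMIs. Epor in MPP2 was at 6.33 against 10.2 CPM (0.618, 0.404 to 0.928) and Car2 at 473 against 729 CPM (0.649, 0.620 to 0.680). Car1, whose level rests on few cells, was 4.45-fold lower in MPP2, at 15.1 against 67.2 CPM. In the HSC gate, Epor was at 5.20 against 5.15 CPM and Gfi1b at 14.1 against 17.4 CPM, while Gata1 was 1.93-fold lower, at 4.68 against 9.04 CPM. In MPP3, Gfi1b was 3.54-fold lower and Car2 3.71-fold lower, at 2.12 and 115 CPM against 7.51 and 425. MPP3 was 69.7% of the Mll4-labelled cells and 44.3% of the control cells, and the HSC gate 7.47% and 23.7%. Over the whole libraries, the mast cell and basophil markers summed to 1721 CPM in the Mll4-labelled library and 26.7 CPM in the control, with 2 of 10 of them (Tpsb2 and Tpsab1) at 0 in the control. Granulocyte and monocyte markers summed to 15980 and 1794 CPM, all 10 detected in both. Their part in the lower Gfi1b and Car2 was not tested.

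The Mll3/4-labelled library was low in the HSC and MPP2 gates too. In MPP2 (110 cells), Gata1 was at 3.49 CPM from 4 UMIs, Epor at 0.873 CPM from 1, Gfi1b at 1.75 CPM from 2, and Klf1 and Car1 had 0. In its HSC gate (215 cells), Gata1 and Epor had 1 UMI each, Gfi1b 2, and Klf1 and Car1 0. Car2 was 5.32-fold lower than in the control's HSC gate and 4.20-fold lower than in its MPP2 gate. In MPP1 and MPP4 Gata1, Klf1, Epor and Car1 had too few UMIs in one library or both to compare. Gata1 in MPP1 was 0 against 14 UMIs, with an interval of the ratio up to 2.29. Epor in MPP4 was 0.171 against 0.137 CPM on 4 and 2 UMIs (ratio 1.25, 0.179 to 13.8). Gfi1b was lower in both gates, at 0 against 105 UMIs in MPP1 and 0 against 65 in MPP4. Its ratio intervals reached up to 0.272 and 0.0365. In this library B-lineage markers, 10 of 10 detected, summed to 13159 CPM against 60.7 CPM in the control, and 4723 of 4748 cells carried them.

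Cells that carried B-lineage markers were also low for these genes in the other libraries. In 31 such control cells Gata1, Klf1, Gfi1b, Epor and Car1 had 0 UMIs and Car2 was at 76.1 CPM. In 228 Mll3-labelled cells Gata1 had 3 UMIs, Klf1 4, Gfi1b 8, Epor 1 and Car1 1, with Car2 at 148 CPM. Of 93 Mll4-labelled cells, Gata1, Klf1 and Gfi1b were each found in 1 cell, and Epor and Car1 in 0. The 4723 Mll3/4-labelled cells had 0 UMIs of Gata1 and Gfi1b, 5 of Klf1 and 7 of Epor, with Car2 at 94.7 CPM. All 6 Gata1 UMIs and all 10 Gfi1b UMIs of that library thus lay in the 25 cells without the B-lineage markers. Of the stem cell markers' carriers there were 23 cells, with Gata1 at 5.75 CPM from 4 UMIs and Car2 at 263 CPM, beside 4.55 and 609 CPM in 3099 such control cells.

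**Figure D2:**
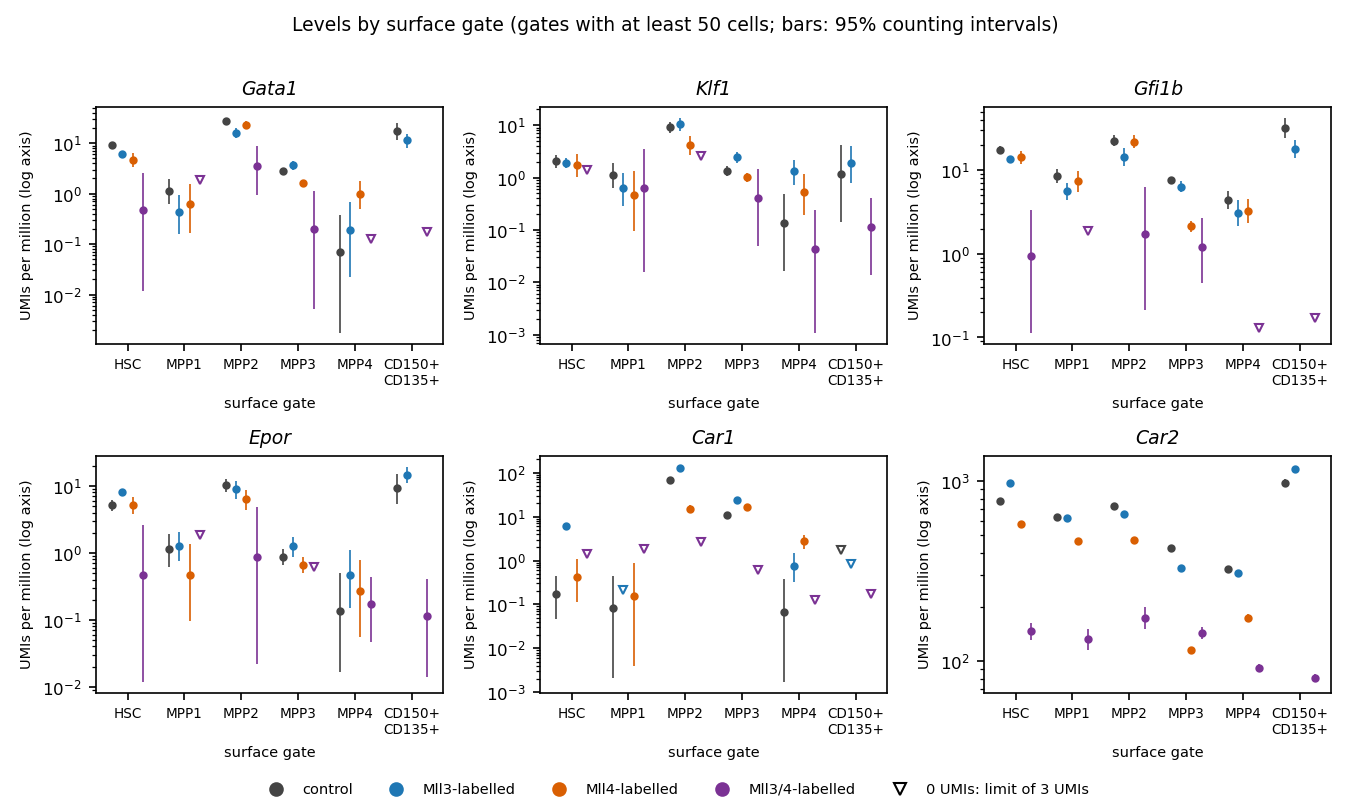
CPM (log axes) of 6 genes in the surface gates of each library, for gates with at least 50 cells, with 95% counting intervals; open triangles mark 0 UMIs at the limit of 3. Gata1, Klf1 and Car1 peak in MPP2 in the control, and the Mll3/4-labelled library lies lowest for Gata1 in HSC, MPP2 and MPP3.

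Gata1 and Gfi1b of the Mll3-labelled library, near the control over the whole library, were lower in some gates. Ratios for Gata1 were 0.680 (0.567 to 0.817) in HSC, 0.584 (0.446 to 0.759) in MPP2 and 1.28 (0.989 to 1.66) in MPP3. For Gfi1b they were 0.784 (0.691 to 0.891), 0.645 (0.483 to 0.855) and 0.842 (0.701 to 1.01). The Mll3-labelled library also differed from the control in where Epor and Car1 were counted. In its HSC gate Epor was at 8.16 against 5.15 CPM, a ratio of 1.59 (1.29 to 1.97), and in MPP2 at 8.86 against 10.2 CPM (0.865, 0.583 to 1.27). The HSC gate held 44.4% of Mll3-labelled and 23.7% of control cells. Car1 in MPP2 was at 125 against 67.2 CPM and in the HSC gate at 6.13 against 0.173 CPM, the first from 283 UMIs and the second from 4, in a gene where few cells decide the level. With log antibody counts not centred, Car1 of the Mll3-labelled library was highest in MPP3 in place of MPP2. Cish, a target of cytokine receptor signalling through STAT5, was 35.3 CPM in the Mll3-labelled library against 12.9 in the control, a log2 ratio of 1.45. It was the 1 gene of 9 tested in the receptor signalling list that was 2-fold higher there. Socs3 (-0.31) and Pim1 (-0.25) of that list were lower, and the list's median was -0.07 beside 0.10 over all genes.

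Cells with several of the 5 rarer genes (Gata1, Klf1, Gfi1b, Epor and Car1) were then counted, since a lone UMI says little about a cell. At least 3 of the 5 were found in 78 control cells (1.07%, exact binomial interval 0.849 to 1.34), 61 Mll3-labelled cells (1.0%, 0.766 to 1.28), 31 Mll4-labelled cells (0.647%, 0.440 to 0.917) and 0 Mll3/4-labelled cells (0 to 0.0777%). The control and the Mll3-labelled library overlapped. Of the 78 control cells, 38 were in the MPP2 gate, which is 11% of that gate, and 23 in the HSC gate. Of the 31 Mll4-labelled cells, 14 were in MPP2, 9.66% of the gate. Median UMIs in these cells were 20936, 23231 and 42609, above the library medians, so the deeper cells were more often counted.

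Megakaryocyte markers were carried by most of these cells. In the control 61 of 78 did (78.2%, beside 21.4% of all its cells), in the Mll3-labelled library 42 of 61 (68.9% beside 26.8%) and in the Mll4-labelled library 25 of 31 (80.6% beside 20.1%). Stem cell markers were carried by 32.1%, 49.2% and 67.7% of them, beside 42.6%, 54.7% and 29.1% of the libraries, and granulocyte and monocyte markers by 3.85%, 3.28% and 87.1%, beside 9.43%, 6.03% and 65.1%. Of all 395 control cells with a Gata1 UMI, 270 (68.4%) carried megakaryocyte markers, and of 982 with a Gfi1b UMI, 387 (39.4%). Mll4-labelled cells with a Gata1 UMI carried mast cell and basophil markers in 76 of 173 cases (43.9%), beside 18.3% of all its cells. In the control 15 of 395 did (3.80%), beside 0.344%. Gata1 is a known gene of mast cells, and the 25 control cells with those markers had it at 53.5 CPM. A Gata1 UMI was found in 15 of these 25 cells and in 76 of the 876 Mll4-labelled cells with the markers. Median UMIs per cell were 25621 and 6953.5.

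A smaller set stood out by Car1. Cells with at least 10 Car1 UMIs, a limit chosen after the values were seen, numbered 18, 13, 8 and 0 and held 94.3%, 96.9% and 95.8% of the Car1 UMIs of the control, Mll3-labelled and Mll4-labelled libraries. They had Klf1 at 158, 187 and 109 CPM, Gata1 at 55.6, 123 and 90.6 CPM and Epor at 57.9, 70.9 and 48.1 CPM. In the control they were 18 of 7274 cells and held 32.9% of all Klf1 UMIs. Of other erythroid genes, Ermap was at 100, 311 and 246 CPM in them, beside at most 0.247 in all other cells, and Tspo2 at 127, 194 and 48.1 CPM, beside at most 0.202. Aqp1, a water channel, was at 167, 169 and 163 CPM, beside 3.68, 3.75 and 0.866. Hemgn, a nuclear protein of red cell progenitors, was at 22.3, 29.7 and 35.1 CPM, beside 27.1, 11.9 and 16.2, and Slc4a1 had 0, 7 and 0 UMIs. Itga2b, a megakaryocyte gene, had 6, 2 and 12 UMIs, at 13.4, 4.57 and 22.2 CPM beside 24.3, 17.6 and 22.5. Pf4, another megakaryocyte gene, had 0, 0 and 1 UMIs in these cells. Hba-a1 had 1, 54 and 9 UMIs in them, the 54 from 1 cell, at 2.23, 123 and 16.6 CPM beside 0.984, 0.379 and 299.9 in all other cells. Hbb-bt had 1, 2 and 120 UMIs, the 120 from 3 cells. Alas2, the red cell enzyme that starts haem synthesis, had 0 UMIs in these cells of all 3 libraries. Of the 18 control cells, 13 were in the MPP2 gate and 5 in MPP3. Of the 13 Mll3-labelled cells 5 were in MPP2 and 6 in MPP3, and of the 8 Mll4-labelled cells 3 and 4.

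Most Hba-a1 and Hbb-bs UMIs of the Mll4-labelled and Mll3/4-labelled libraries lay in another small set. Cells with at least 10 UMIs of Hba-a1 and Hbb-bs together, called globin-high here and also defined after the values were seen, numbered 3, 5, 46 and 6. These 46 of the 4793 Mll4-labelled cells held 97.0% of the Hba-a1, 97.2% of the Hbb-bs and 62.1% of the Hbb-bt UMIs. Likewise, 6 of the 4748 Mll3/4-labelled cells held 97.2%, 98.2% and 93.8%. The richest Mll4-labelled cell had 10700 Hbb-bs UMIs, and haemoglobin genes made up as much as 57.4% of a cell's UMIs.

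The early erythroid genes were counted in some of these globin-high cells and not in others. The 46 Mll4-labelled cells together had 1 Gata1, 0 Klf1, 3 Gfi1b, 3 Epor and 7 Car1 UMIs, or 0.817, 0, 2.45, 2.45 and 5.72 CPM, where the whole library had 2.73, 1.14, 4.49, 1.27 and 13.2. The 5 Mll3-labelled cells had 7 Gata1, 9 Klf1, 1 Gfi1b, 6 Epor and 83 Car1 UMIs, and the Car1 UMIs were all in the cell with 54 Hba-a1 UMIs named above. The 3 control and 6 Mll3/4-labelled cells were too few to read these genes at their library levels. Late red cell transcripts were found in the Mll4-labelled cells. Of all UMIs in the Mll4-labelled library, these 46 cells had 97.4% of Alas2 (680 UMIs) and 97.2% of Slc4a1 (140), the band 3 anion exchanger of the red cell membrane. Markers of other cell types were present in the same cells. Of the 46, 36 carried macrophage markers, beside 18.2% of the library. Granulocyte and monocyte markers were carried by 28, beside 65.1% of the library, and 32 were in the MPP3 gate, beside 69.7%. Of the 6 Mll3/4-labelled cells, 5 carried B-lineage markers, as did 99.5% of that library. Macrophage markers summed to 32.3, 32.6, 691 and 16.0 CPM over the 4 libraries, with all 10 detected except Lyz1 in the last. The part of these other cell types in the globin counts was not tested.

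**Figure D3:**
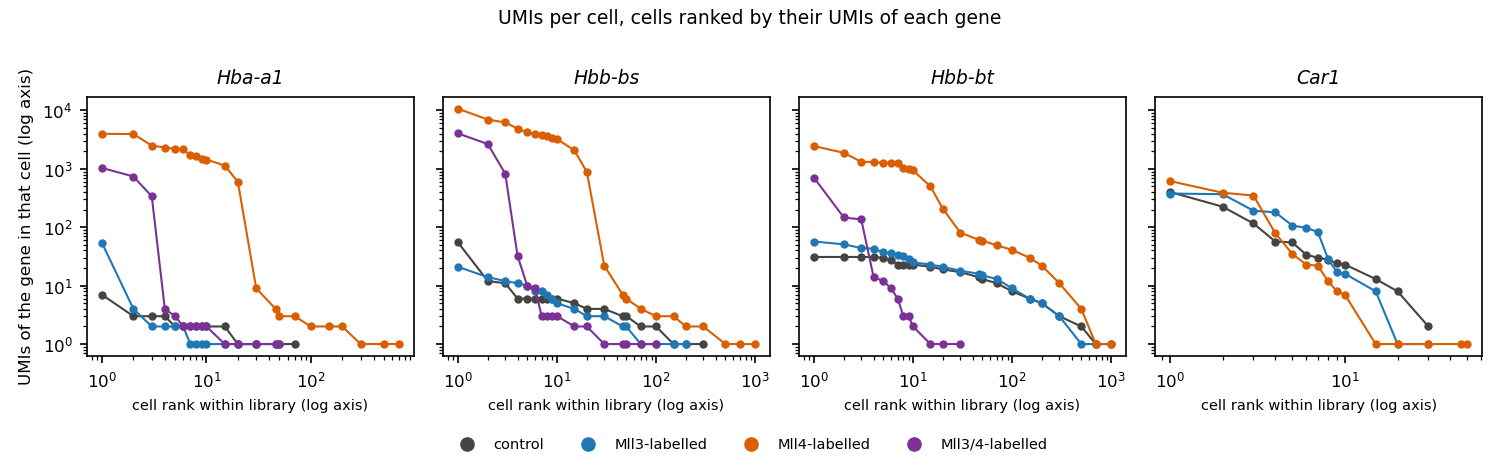
UMIs of Hba-a1, Hbb-bs, Hbb-bt and Car1 in single cells (log axis) against the rank of the cell in its library (log axis), with 1 line per library and points at chosen ranks. In the Mll4-labelled library Hbb-bs starts at 10700 UMIs and drops steeply after some 20 cells, in the Mll3/4-labelled library after 3 cells, and Hbb-bt has a long flat tail in the first 3 libraries.

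With the globin-high cells left out of every library, the comparison with the control changed. For the Mll3/4-labelled library Hba-a1 was 1.18 against 0.897 CPM (log2 ratio 0.40 in place of 5.43), Hbb-bs 2.76 against 4.78 CPM (-0.79 in place of 4.80) and Hbb-bt 1.30 against 31.2 CPM (-4.57 in place of -0.58). Hbb-bt was then 24.0-fold lower than in the control (18.8-fold at the near limit), so the higher Hba-a1 and Hbb-bs rested on 6 cells and the near-control Hbb-bt did too. The globins of the Mll4-labelled library stayed above the control: Hba-a1 was 9.15 CPM (10.2-fold higher), Hbb-bs 17.6 CPM (3.69-fold) and Hbb-bt 96.9 CPM (3.11-fold). In the Mll3-labelled library Hba-a1 was 0.331 CPM, 2.71-fold lower than the control in place of a ratio of 0.898 with all cells. Among the other 6 genes Car1 in the Mll3-labelled library moved most, from 0.57 to 0.49 on the log2 scale.

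Low globin counts can come from RNA set free by broken cells. Of the 93 Mll4-labelled cells with B-lineage markers, which should lack globin, 24.7% had an Hba-a1 UMI and 30.1% an Hbb-bs UMI, at a median of 26713 UMIs per cell. Over the whole library the shares were 19.1% and 32.5% at a median of 21400. Thinned to 3000 UMIs per cell, the shares were 3.72% and 3.92% in the B-lineage cells and 4.78% and 8.51% in the library. Whether shares of Hba-a1 near that of the B-lineage cells come from free RNA or from expression was not tested. Without the globin-high cells Hba-a1 and Hbb-bs differed by about 2-fold between the gates of this library, lowest in MPP2 and highest in MPP4. Hba-a1 was at 7.02 to 14.8 CPM and Hbb-bs at 14.2 to 28.4 CPM over the 5 gates with at least 50 cells.

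Hbb-bt differed more between gates. Without the globin-high cells it was 320 CPM in the HSC gate of the Mll4-labelled library and 441 in MPP1, 165 in MPP2, 41.1 in MPP3 and 104 in MPP4. The control had 57.3 in HSC, 64.6 in MPP1, 11.2 in MPP2, 19.8 in MPP3 and 19.1 in MPP4. The Mll4-labelled library was thus 5.58-fold higher in the HSC gate (5.23 to 5.96) 6.83-fold higher in MPP1 (6.31 to 7.40) and 14.7-fold higher in MPP2 (11.8 to 18.6), with 5.45-fold in MPP4 and 2.07-fold in MPP3. The 93 Mll4-labelled cells with B-lineage markers had Hbb-bt at 41.1 CPM, with a UMI in 18.3% of them beside 26.5% of the library. The MPP3 level and share (19.2% of cells) were thus near those of the B-lineage cells. The level of the B-lineage cells came from 119 Hbb-bt UMIs, and the richest of these cells held 70 haemoglobin UMIs. The HSC, MPP1 and MPP2 shares were 61.8%, 62.6% and 45.8%. With cells thinned as above, the shares were 5.74% in MPP3 and 3.61% in the B-lineage cells. At least 10 Hbb-bt UMIs were found in 82 of 3311 MPP3 cells and in 2 of the 93 B-lineage cells. Whether the MPP3 counts come from free RNA or from expression was not tested. In the Mll3-labelled library Hbb-bt was close to the control in HSC (52.7 CPM, ratio 0.920) and 2.45-fold lower in MPP1. The Mll3/4-labelled library was lower in HSC, MPP1, MPP3, MPP4 and CD150+CD135+, at 0.470 to 2.81 CPM. Its MPP2 level was higher, at 23.6 CPM from 27 UMIs, but 2 cells with at least 10 UMIs each carried it. A UMI was found in 2.73% of its MPP2 cells, against 13.3% in the control.

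The share of Hbb-bt in the beta globin UMIs, Hbb-bs and Hbb-bt together, is given as a description only, since the globin-high cells were chosen by Hbb-bs and Hba-a1. In those cells it was 25.7%, 29.2%, 20.7% and 11.7%, and in all other cells 86.7%, 90.5%, 84.6% and 32.0%. Cells with at least 5 Hbb-bt UMIs and not globin-high, again chosen after the values were seen, numbered 207, 209, 422 and 3. Of them 42.0%, 73.2% and 29.6% were in the HSC gate in the control, Mll3-labelled and Mll4-labelled libraries. Of the cells with no Hbb-bt UMI, 23.0%, 42.5% and 3.86% were in that gate. Gata1 was at 0.898, 1.76 and 2.57 CPM in the cells with at least 5 Hbb-bt UMIs, beside 5.58, 5.20 and 2.79 CPM in those with none. Mecom, a stem cell transcription factor, was at 131, 153 and 287 CPM, beside 84.9, 98.0 and 68.0 CPM. Klf1, Gfi1b, Epor and Car1 were also lower in the cells with at least 5 Hbb-bt UMIs in the control and Mll3-labelled libraries. In the Mll4-labelled library they were higher in those cells, with Klf1 at 1.64 beside 1.06 CPM and Gfi1b at 9.51 beside 3.55 CPM. Car2 was at 542, 972 and 432 CPM in the cells with at least 5 Hbb-bt UMIs, beside 533, 668 and 141 CPM. Median depth differed in the Mll4-labelled library, at 29518 and 17357 UMIs per cell, and its part was not tested.

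**Figure D4:**
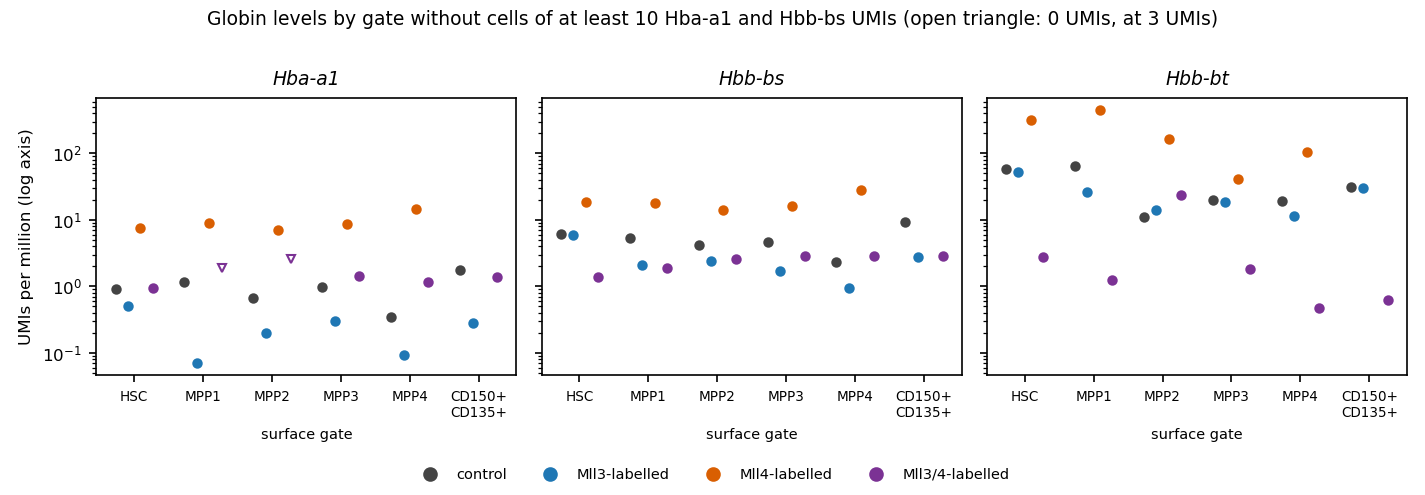
CPM (log axis) of the 3 globins by surface gate, without cells that had at least 10 Hba-a1 and Hbb-bs UMIs together, 1 point per library and gate. In the Mll4-labelled library Hba-a1 runs from 7.02 to 14.8 and Hbb-bs from 14.2 to 28.4, while Hbb-bt runs from 41.1 in MPP3 to 441 in MPP1.

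The wider erythroid programme was read from 6 lists of 85 genes that do not include the 9, of which 83 were in the matrices and 64 reached 1 CPM. In the Mll3-labelled library 4 of the 64 were at least 2-fold higher and 4 lower, in the Mll4-labelled library 7 and 10, and in the Mll3/4-labelled library 10 and 23. Of all genes the shares were, in the same order, 3.49% and 1.83%, 9.59% and 6.59%, and 10.7% and 17.4%. The median log2 ratios of the 64 were 0.10, -0.30 and -0.58, beside 0.10, -0.10 and -0.13 over all genes.

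The transcription factor list held 15 genes, all tested. In the Mll3/4-labelled library 8 were at least 2-fold lower and 3 higher, beside 17.4% and 10.7% of all genes. The list's median log2 ratio was -1.21. Lmo2 (-6.17), a bridging protein of GATA factor complexes, and Gata2 (-6.1), the GATA factor of early blood cells, were at 10.0 and 1.24 CPM there against 722 and 85.6 in the control. E2f2, a cell cycle factor, went the other way at 186 against 9.54 CPM. Of the same 15 genes the Mll4-labelled library had 2 lower and 0 higher, beside 6.59% and 9.59% of all genes. There 14 of 15 lay below the control, with a median of -0.57. The 2 lower were Zfpm1, the cofactor FOG1 of Gata1, at 26.0 against 89.7 CPM (-1.79) and Lmo2 at 338 against 722 CPM (-1.09). In the Mll3-labelled library none of the 15 passed 2-fold in either direction, and the values ran from -0.24 for Myb to 0.54 for Runx1t1.

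Of the receptor signalling genes 9 of 10 were tested. In the Mll4-labelled library 1 was 2-fold lower, Tfr2, a transferrin receptor that binds the erythropoietin receptor, at 9.06 against 29.4 CPM (-1.70), and Kit, the stem cell factor receptor, was at 362 against 215 CPM (0.75). The Mll3/4-labelled library had 4 lower, Tfr2 most at 0.433 CPM (-6.05), and 2 higher, Bcl2l1 (2.74) and Cish (1.77). Of all genes, 6.59% were lower in the Mll4-labelled library, and 17.4% lower and 10.7% higher in the Mll3/4-labelled one.

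Of 18 haem and iron genes, 3 were higher and 1 lower in the Mll4-labelled library, beside 9.59% and 6.59% of all genes. Alas2 was highest at 5.78 against 0.159 CPM (5.15), with 97.4% of its UMIs in the 46 globin-high cells. Alas1, the form of that enzyme used in all cells, was at 319 against 25.8 CPM (3.63), and Alad was lower at 21.3 against 56.8 CPM (-1.42). There were 2 lower in the Mll3/4-labelled library, Alad (-1.98) and the ferritin chain Fth1 (-1.71), beside 17.4% of all genes. Alas2 was the 1 higher (1.56), beside 10.7% of all genes, with 23 of its 24 UMIs in the globin-high cells. Of 20 membrane genes 7 were tested. In each of the Mll4-labelled and Mll3/4-labelled libraries 2 were lower, 0 higher and 5 within 2-fold, with medians of -0.48 and -0.85. Of all genes, 6.59% and 17.4% were lower. Aqp1 had the lowest ratios of the 7, at 4.29, 1.59 and 0.0788 CPM in the control, Mll4-labelled and Mll3/4-labelled libraries. Smim1 had the highest, at 3.03, 5.70 and 3.23 CPM.

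Of 13 early progenitor genes tested, 5 were lower and 2 higher in the Mll4-labelled library and 7 and 3 in the Mll3/4-labelled one. Of all genes, 6.59% were lower and 9.59% higher in the first, and 17.4% and 10.7% in the second. Slc14a1, a urea carrier, was at 9.21 CPM (975 UMIs) in the Mll3-labelled library and 0.0197 CPM (1 UMI) in the Mll3/4-labelled library. The control was above both, at 15.4 CPM (1842 UMIs). Cpa3, a protease of mast cells as well as early progenitors, was at 757 against 15.2 CPM in the Mll4-labelled library (5.64), where 18.3% of cells carried mast cell and basophil markers. Mt2, a metallothionein, was higher in all 3, at 8.18, 9.15 and 43.6 CPM against 0.922. Of the globin list only 3 genes were tested: Hemgn was at 27.1, 12.0, 16.3 and 0.197 CPM in the 4 libraries, Hba-a2 is given above, and Hebp1 was at 10.6, 13.9, 32.7 and 10.0 CPM.

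**Figure D5:**
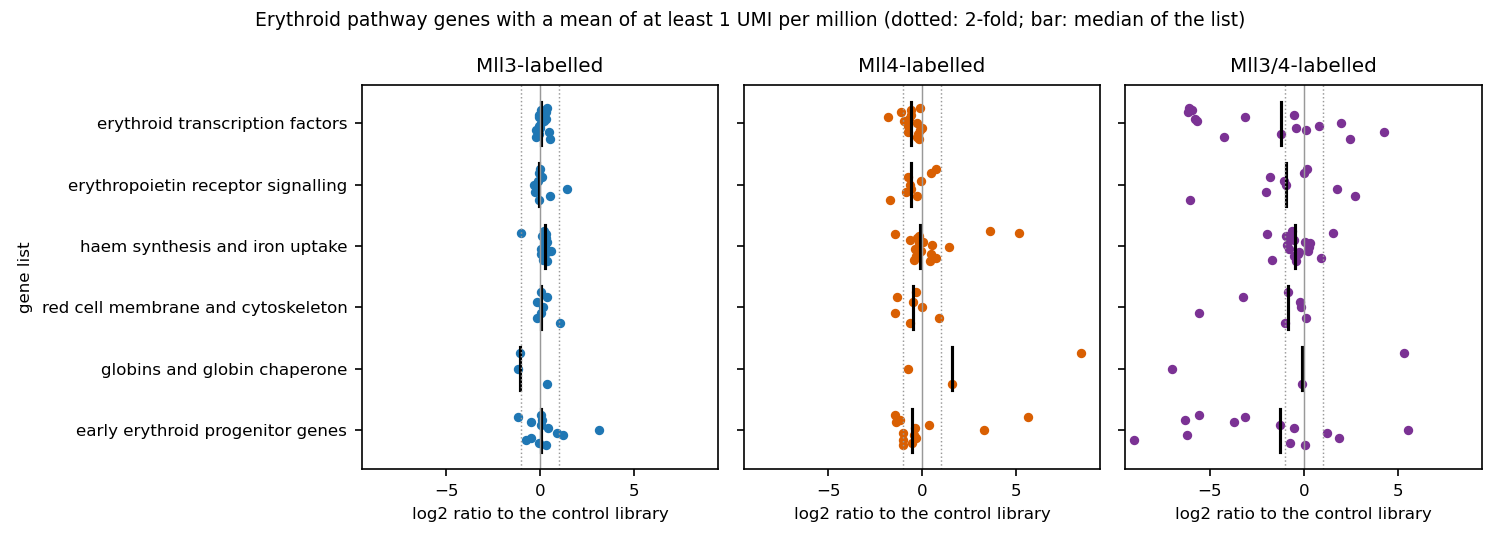
Log2 ratio to the control library of the 64 tested genes in 6 erythroid lists, 1 panel per library, each point 1 gene and each bar the list's median. Transcription factor and early progenitor genes reach -6 and below in the Mll3/4-labelled library, while the Mll3-labelled points of those lists mostly lie within the dotted 2-fold lines.

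The genes whose pattern was most like the mean of Gata1, Klf1, Epor and Gfi1b were ranked over 23 sums, 1 per library and gate with at least 50 cells. Of 6121 genes with at least 20 CPM, Pf4 was highest (Pearson r = 0.929), followed by Plxnc1 (0.889), Zfpm1 (0.877), Nadk2 (0.877) and Aldh18a1 (0.868). The sums share libraries and differ in depth, so these values describe likeness only. Pf4, the platelet factor of megakaryocytes, was at 72.5, 29.1, 39.5 and 0.256 CPM in the 4 libraries.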

How the data were processed

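The deposited values were counts of UMIs and antibody tags per cell barcode, in 1 matrix for each of 4 libraries. The chemistry was 10x Genomics 3-prime, per the labels' protocols, and per the file headers and the submitters' processing notes, the matrices came from Cell Ranger 6.1.1 and mm10. How barcodes were selected is not given in the sources used here.

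A barcode was kept with 1000 or more genes and no more than 10% of UMIs from mt- genes. UMIs were summed over cells and divided by the total of gene UMIs. Log2 ratios used 0.5 added UMIs and exact conditional intervals, levels exact Poisson intervals and shares Clopper-Pearson intervals, at 95%. Background counts took genes that averaged 1 CPM or more over the libraries, called at 2-fold. With 1 library per genotype no test was run. Thinning to 3000 UMIs per cell used the expected share over all draws and left out 14, 17, 134 and 33 cells. Antibody counts were centred log ratios per cell (natural log), with Gaussian mixture thresholds shared by the libraries. Scrublet's own threshold called 3, 3, 171 and 1 doublets, too few to have worked in 3 libraries, so no cell was removed and removal of the 423, 298, 184 and 180 highest scores was an alternative. On simulated counts, 100% of genes changed 4-fold were found in each of the 3 comparisons, and 0.304% to 0.728% of unchanged genes passed 2-fold. The simulation drew Poisson counts from the control's levels. It held no variation between animals or cells, so these shares cover counting error only.

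The 9 genes, the gene lists and the markers were chosen with earlier results of these data known. Genes named besides the 9 were the 2 highest and 2 lowest ratios of each list and library, the 5 most alike in pattern, and genes described in sets of cells picked after their values were seen. Coordinates are from GENCODE on GRCm38 and promoters from RefSeq on GRCm38.p6, with both used only where identifiers or symbols matched. Tools were Python 3.11.15, numpy 2.4.6, scipy 1.17.1, scikit-learn 1.9.0, scanpy 1.11.5, R 4.3.3 and edgeR 4.0.16 (TMM factors only).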

Additional observations from a re-analysis of the deposited data

Results flagged for a closer look

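Epor moved in opposite directions against the shared control, at a log2 ratio of 1.08 in the Mll3-labelled library and -3.82 in the Mll3/4-labelled library. With 1 library each, the difference was not tested. The barcodes that failed the cell filter, which no comparison above used, also held globin in the Mll4-labelled library: in 2909 such barcodes Hba-a1 was at 315 CPM, Hbb-bs at 438 CPM and Hbb-bt at 185 CPM. The 408 failed control barcodes had 9.16, 17.4 and 14.7 CPM. These Mll4-labelled levels came from 1107, 1538 and 652 UMIs. At least 10 UMIs of Hba-a1, Hbb-bs and Hbb-bt were found in 3, 4 and 6 of the 2909 barcodes. The part of those barcodes in the levels was not tested.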

How the results depend on the processing

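No paired analysis was possible because each genotype had 1 library. The median-of-ratios scaling shifted log2 ratios by -0.10, 0.05 and 0.11 in the libraries labelled Mll3, Mll4 and Mll3/4. Of the 27 ratios of 9 genes, 26 kept their sign and side of 2-fold with TMM and with median-of-ratios scaling, 27 with looser cells, 26 without the highest doublet scores, 25 with equal weight per cell, 25 with the reduced total, 26 without mast, macrophage and eosinophil marker carriers, 20 with stricter cells, 23 without globin-high cells and 20 without the 3 richest cells of each gene. The last 2 settings were added after the data were seen, and both turned Hbb-bs in the Mll3/4-labelled library, from 4.80 to -0.79 and -0.34.

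The 1 gene 2-fold higher in the Mll3-labelled library (Epor) became 0 with TMM, median-of-ratios, stricter cells, the reduced total, minimums of 5 and 20 CPM, and 4-fold. The 0 lower became 1 (Hba-a1) with stricter cells, without globin-high cells and without the 3 richest cells. The 2 lower in the Mll4-labelled library became 4 with stricter cells and without the 3 richest cells (Gata1 and Epor added), 1 at 20 CPM and 0 at 4-fold. The 2 higher in the Mll3/4-labelled library became 0 without globin-high cells and without the 3 richest cells, and the 6 lower became 3 at 5 CPM and 1 at 20 CPM, where 6 and 4 of the 9 genes were tested. In the lists, the 4 genes higher in the Mll3-labelled library became 2 at 5 CPM and the 4 lower became 2 without marker carriers. Otherwise the cause of these moves was not tested.

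Background shares moved with the minimum and the fold. In the Mll3-labelled library 3.49% higher became 1.85% at 5 CPM, 1.09% at 20 CPM, 11.2% with no minimum and 0.929% at 4-fold, and 1.83% lower became 0.958%, 0.457%, 9.23% and 0.449%. For the Mll4-labelled library 9.59% higher became 4.98% at 20 CPM, 21.7% with no minimum and 4.86% at 4-fold, and 6.59% lower became 3.28%, 11.2% and 0.708%. For the Mll3/4-labelled library 10.7% higher became 6.07%, 25.9% and 5.49%, and 17.4% lower became 10.5% at 20 CPM and 9.67% at 4-fold. The cells with at least 3 of 5 genes (78, 61, 31 and 0) became 304, 296, 104 and 2 with at least 2 genes and 12, 16 and 12 with at least 4, so the Mll4-labelled count was lowest of the 3 only at 2 and 3 genes.

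Cells under 3000 UMIs, counts of 10 or fewer in the Mll3/4-labelled library and gates under 50 cells limit what can be read there. Gate levels depended on how the antibody counts were scaled. With log antibody counts not centred, 101 of 189 gate levels moved outside their counting intervals. In the control the highest gate changed for Car2, Gfi1b, Hbb-bs and Hbb-bt.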
